A study of Homo sapiens with 12 samples.

Results

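The genes described here are 10 spliced long noncoding RNA genes with small nucleolar RNA (snoRNA) genes inside them: GAS5, ZFAS1, SNHG1, SNHG5, SNHG6, SNHG7, SNHG8, SNHG12, SNHG15 and SNHG16. They were taken by symbol from the first column of the 3 tables of the series, and all 10 were found among the 23292 symbols listed in each. RNA came from HEK293T cells, a human embryonic kidney line that the growth notes call HEK293 and that carries the label WT, treated for 6 h with DMSO as vehicle or with 10 µM AA263, AA263yne or AA263-5. AA263 is a phenylhydrazone compound that activates the ATF6 arm of the unfolded protein response, and in AA263yne an alkyne replaces its nitro group. There were 3 samples in each of the 4 groups and 12 samples in all, and every sample came from the same line.

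The value analysed for each gene was the authors' mean normalized value over all 12 samples, vehicle and compounds together. This mean was identical in the 3 tables (largest difference 0). The other columns of those tables hold the study's own comparison of each compound with vehicle and were not used, so the levels below describe these cells across all 4 groups, with no value per sample, no spread and no test. Neither a response of a host gene to a compound nor the identity of the cell line was analysed here, and whether NMD degrades these 10 RNAs in these cells was not measured. The means summed to 36.6 M. The methods give a nominal sequencing depth, but totals of single samples were not analysed, so the reads behind each value were not counted here.

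A snoRNA host gene is transcribed and spliced like an mRNA, and the snoRNAs are trimmed out of its introns. Box C/D snoRNAs guide 2′-O-methylation of ribosomal RNA and box H/ACA snoRNAs guide pseudouridylation. The joined exons of many hosts carry no long reading frame, yet ribosomes engage them. Nonsense-mediated decay (NMD) then degrades RNAs in which translation stops well upstream of an exon junction, because a protein complex deposited at that junction is not removed. Several hosts also start with a 5′ terminal oligopyrimidine tract, a C followed by pyrimidines, which is the hallmark of ribosomal protein mRNAs and links their translation to growth signals.

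The sequence around the start site was examined first because this tract belongs to the first bases of the RNA. RefSeq promoters on GRCh38.p14 were matched by symbol for 8 of the 10 genes (SNHG6 and SNHG15 had no entry). The stretch from 40 bases before the annotated start to 20 bases from it is shown for each. Capitals mark a C followed by at least 4 pyrimidines with its C within 10 bases of the start, and the letters TATAA where they began 20 to 40 bases before the start. Only the sense strand was searched.
GAS5, chr1:173869026-173869085, minus strand: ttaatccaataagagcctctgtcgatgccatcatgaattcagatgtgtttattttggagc
ZFAS1, chr20:49278602-49278661, plus strand: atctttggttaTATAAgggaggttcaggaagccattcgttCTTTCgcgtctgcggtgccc
SNHG1, chr11:62855866-62855925, minus strand: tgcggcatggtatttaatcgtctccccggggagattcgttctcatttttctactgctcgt
SNHG5, chr6:85678714-85678773, minus strand: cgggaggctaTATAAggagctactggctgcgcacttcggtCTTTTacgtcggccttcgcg
SNHG7, chr9:136728165-136728224, minus strand: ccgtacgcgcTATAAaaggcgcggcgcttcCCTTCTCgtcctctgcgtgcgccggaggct
SNHG8, chr4:118278722-118278781, plus strand: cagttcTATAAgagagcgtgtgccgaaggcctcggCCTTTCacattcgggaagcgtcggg
SNHG12, chr1:28581854-28581913, minus strand: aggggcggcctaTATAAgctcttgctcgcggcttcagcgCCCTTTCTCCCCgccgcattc
SNHG16, chr17:76557724-76557783, plus strand: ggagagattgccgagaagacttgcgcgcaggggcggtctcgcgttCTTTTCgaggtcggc

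A pyrimidine tract with its C within 10 bases of the start was found in 6 of these 8 host genes. Over all 35116 promoters of the same length, 33.5% held one. In ZFAS1 and SNHG5 the C of the tract was the annotated first base. In SNHG12 the tract began 1 base before the start and ran for 12 bases, the longest of the 6. The tract of SNHG8 began 5 bases before the start, and that of SNHG16 began 5 bases after it. The capitals of SNHG7 begin at the edge of the window, 10 bases before the start, and belong to a run of 11 pyrimidines that began 14 bases and ended 4 bases before the start, so it did not reach the start itself. With a window of 25 bases, all 8 held a tract, against 56.4% of all promoters, and with at least 6 pyrimidines after the C only SNHG7 and SNHG12 did, against 13.5%.

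The letters TATAA stood 28 to 34 bases before the start of 5 of the 8 genes, namely ZFAS1, SNHG5, SNHG7, SNHG8 and SNHG12, and in the same place in 3.91% of all promoters. This motif, the core of the TATA box that positions RNA polymerase II, was looked for after these sequences had been read, so its count is a description only. The SNHG1, SNHG16 and GAS5 windows did not hold these letters.

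The annotated start differed most between sources for GAS5 and SNHG12. The reference-choice transcript of GAS5 in GENCODE 44 (the transcript tagged as canonical) began 1056 bases downstream of the RefSeq start, and that of SNHG12 began upstream of it, at -1113 relative to the RefSeq start. In the first 11 bases of the GENCODE transcript a tract was found in 3 of the 10 genes, GAS5, ZFAS1 and SNHG12. None was found there in SNHG5, SNHG7, SNHG8 and SNHG16, which held one around the RefSeq start. The share of other genes with a tract in these first bases was not computed, so this count has no background beside it. The GAS5 transcript opened with a tract of 6 bases, shown here in capitals because none lay within 10 bases of its RefSeq start.
GAS5, chr1:173867960-173867989, minus strand, first 30 bases of the transcript: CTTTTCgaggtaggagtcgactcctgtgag

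GAS5 lies on chromosome 1 of GRCh38 from 173858559 to 173868882 on the minus strand (GENCODE gene ENSG00000234741.10). ZFAS1 (ENSG00000177410.13) lies on chromosome 20 from 49278178 to 49299600 on the plus strand, and overlaps the 5′ part of ZNFX1 on the other strand. SNHG1 (ENSG00000255717.9) occupies chromosome 11 from 62851978 to 62855953 on the minus strand. SNHG5 (ENSG00000203875.13) occupies chromosome 6 from 85650491 to 85678932 on the minus strand, SNHG6 (ENSG00000245910.9) chromosome 8 from 66920561 to 66926398 on the minus strand, and SNHG7 (ENSG00000233016.9) chromosome 9 from 136721366 to 136728184 on the minus strand. SNHG8 (ENSG00000269893.10) runs on the plus strand of chromosome 4 from 118278703 to 118285316, where it overlaps PRSS12 on the other strand by 5279 bases. SNHG12 (ENSG00000197989.15) is on the minus strand of chromosome 1 from 28578538 to 28583132, SNHG15 (ENSG00000232956.10) on the minus strand of chromosome 7 from 44983019 to 44986961, and SNHG16 (ENSG00000163597.17) on the plus strand of chromosome 17 from 76557727 to 76670985. All 10 are annotated as lncRNA genes, so none of their exons is a coding exon or a UTR.

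All 10 host genes were detected in these cells. The highest mean normalized values were 3412 for SNHG1 and 3196 for SNHG16. SNHG7 followed with 1461, ZFAS1 with 1345, SNHG15 with 1290, GAS5 with 1209 and SNHG5 with 1077. SNHG6 had a mean of 982, SNHG8 of 777 and SNHG12, the lowest, of 249.96. Whether these values already contain a correction for length is not settled. The methods describe RPKM, values scaled to both library size and transcript length, as the input of the DESeq2 fit. RPKM multiplied by length in kb sum to 1 M in a sample, whereas these means gave 119 M over the 17910 genes with a length, so they are not on the plain RPKM scale. Yet they did not rise with length: the median mean was 865 in the shortest of 4 equal length groups of protein-coding genes and 788 in the longest. The mean of SNHG1 was 13.6 times that of SNHG12. With no spread per gene, whether neighbours in this order differ was not tested, and the values of SNHG7, ZFAS1, SNHG15 and GAS5 lie close together.

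Among the 15638 genes with a mean of at least 10, 9 of the 10 host genes lay above the median of 571. SNHG1 stood at the 85.8th percentile, SNHG16 at the 84.7th and SNHG12 at percentile 37.1. The other 7 fell between the 56.0th percentile (SNHG8) and the 69.5th (SNHG7). Together the 10 genes held 0.0410% of the summed mean values of the table.

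**Figure D1:**
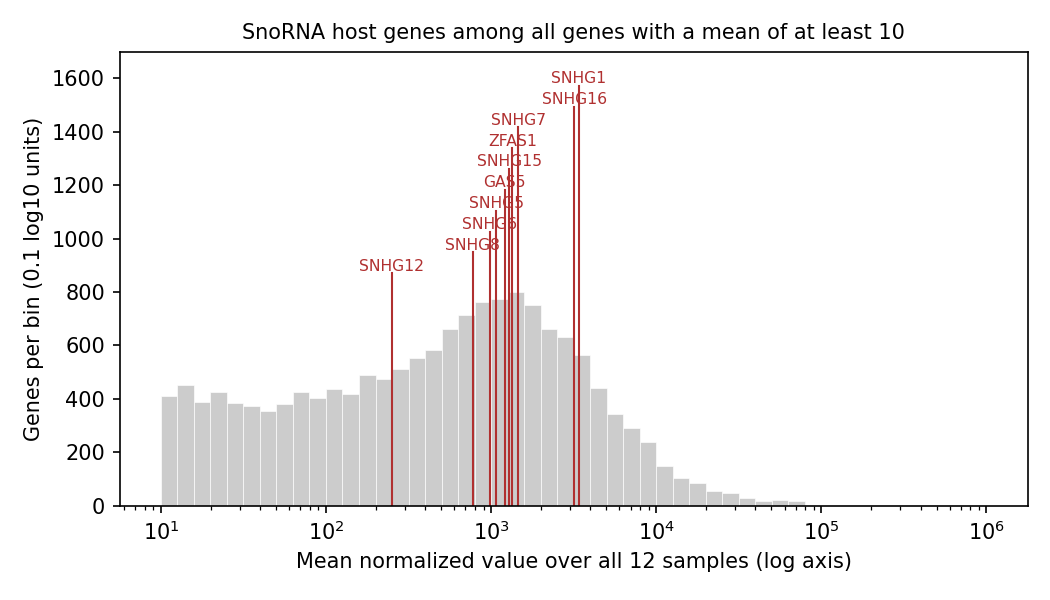
Number of genes per bin of 0.1 log10 units (vertical axis) by the authors' mean normalized value over all 12 samples (horizontal log axis), for the 15638 genes with a mean of at least 10. Red lines mark the 10 host genes: 9 lie above the median of 571 and SNHG12, at 249.96, lies below it.

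The means were also divided by transcript length. These values per kb compare genes only if the deposited mean is not already per length, and otherwise correct for length once too often. The annotation offers many lengths for these loci: 91 transcripts for GAS5, 89 for SNHG5, 80 for SNHG1 and 8 to 19 for the others. Per kb of the reference-choice transcript, SNHG16 was at 6418 (498 bases) and SNHG1 at 2936 (1162 bases). GAS5 was at 1574 per kb (768 bases) and SNHG5 at 818 per kb (1316 bases). SNHG7 was at 620, SNHG6 at 539, SNHG15 at 430 and ZFAS1 at 297 per kb. At the other end, SNHG12 was at 134 per kb (1871 bases) and SNHG8 at 126 per kb (6166 bases). The median of the 10 genes was 580 per kb, and 8 of them lay above the median of 206 per kb over the 14025 genes with a mean of at least 10 and a known length.

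The choice of transcript moved single genes by 3.42-fold (SNHG1) to 13.5-fold (SNHG8). SNHG8 was at 1589 per kb with the median length of its annotated transcripts, 489 bases, in place of a model of 6166 bases. ZFAS1 was at 297 per kb with its reference-choice model of 4526 bases and at 1961 per kb with its median length of 686 bases. SNHG16 fell the other way, to 553 per kb with the union of its exons. SNHG1 was highest or next to it and SNHG12 lowest or next to it under each of the 4 lengths.

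**Figure D2:**
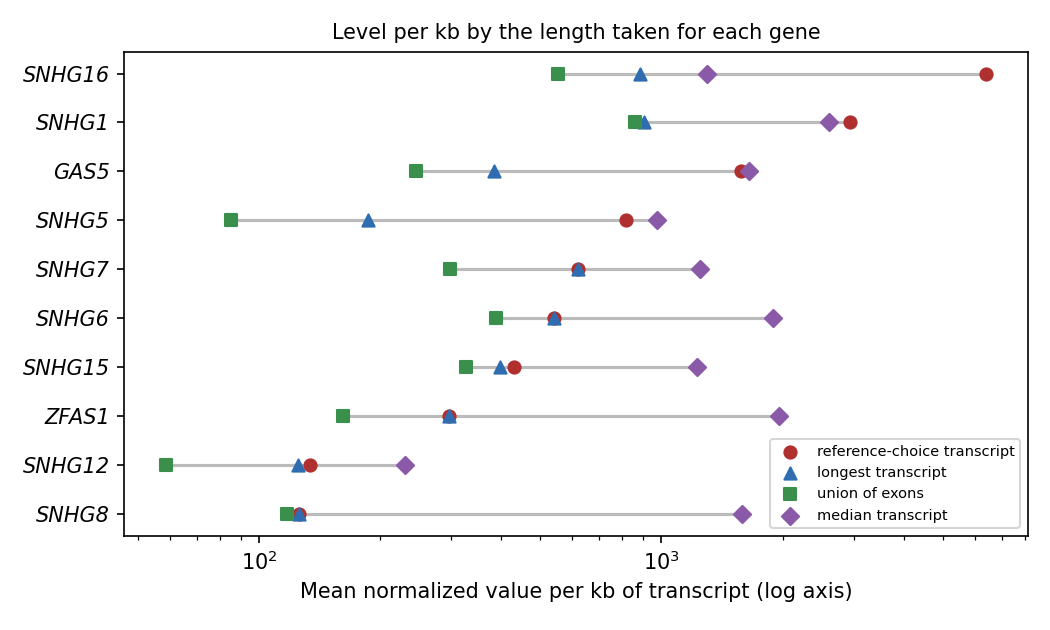
Mean normalized value per kb of transcript (horizontal log axis) for each host gene, with the length of the reference-choice transcript, the longest transcript, the union of exons or the median transcript. Grey lines join the lowest and highest of the 4 values, which span 3.42-fold for SNHG1 and 13.5-fold for SNHG8.

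The host genes, with their median of 580 per kb, had a higher median level than other noncoding genes, and so they did on the mean without division by length (1249, against 64.6 for other lncRNA genes and 827 for protein-coding genes). The 622 other lncRNA genes with a mean of at least 10 and more than 1 exon had a median of 47.1 per kb, and the 12844 such protein-coding genes a median of 228 per kb. Of 17 further noncoding snoRNA hosts, 14 were listed, with a median of 296 per kb. LRRC75A-AS1, the older symbol of SNHG29, was the highest at 19242 per kb, and SNHG25 was the lowest at 27.9 per kb. DANCR, a host of H/ACA snoRNAs, was at 1176 per kb, and SNHG17 at 790 per kb. The 22 protein-coding snoRNA hosts, mostly genes for ribosomal proteins and translation factors, had a median of 20009 per kb, with RACK1, a protein of the small ribosomal subunit, highest at 155373 and EIF4A1, an RNA helicase of translation initiation, lowest at 253. Of these 22, 20 lay above the host genes' median of 580 per kb, and of the 14 other noncoding hosts 4 did. On the mean without division by length these counts were 20 and 2, and with the other 3 lengths 20 and 2 to 3.

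The features that make a spliced RNA an NMD substrate were then read from the reference-choice transcripts. In all 10 host genes, the first AUG with an in-frame stop opened a short frame that ended more than 50 bases before the last exon junction, the distance commonly used to call an NMD substrate. The distance from that stop to the last junction ranged from 151 bases (ZFAS1) to 2195 bases (SNHG15), with a median of 240 bases. The frame held 3 to 67 codons, with a median of 29 codons. The same arrangement was present in 76.8% of the 622 other multi-exon lncRNA genes and in 40.4% of the 12844 protein-coding genes, where the first AUG may precede the annotated start codon. The median first frame was 23 codons in these lncRNA genes and 198 codons in the protein-coding genes, so frames this short were not particular to the hosts. Over the 352 annotated transcripts of the 10 genes with more than 1 exon, 326 (92.6%) had the arrangement, from 71.4% of those of ZFAS1 to 100% of those of SNHG12. GAS5, SNHG1 and SNHG5 supplied 91, 79 and 87 of these transcripts. The shares of other genes above count 1 transcript per gene, and none was computed over all their transcripts.

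The 3 shortest of these frames, and that of ZFAS1, whose stop lay nearest to the last junction, are shown for the short stretch between start and stop. They are printed with the start and stop codons in capitals, and their positions are counted from the first base of the reference-choice transcript. That of SNHG15 ran from base 507 to 518 (3 codons), that of SNHG12 from 114 to 131 (5 codons), that of SNHG5 from 92 to 130 (12 codons) and that of ZFAS1 from 100 to 177 (25 codons). In each case at least 1 junction lay downstream.
SNHG15: ATGccccggTAA
SNHG12: ATGgtctcgatctccTGA
SNHG5: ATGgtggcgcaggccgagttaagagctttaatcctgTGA
ZFAS1: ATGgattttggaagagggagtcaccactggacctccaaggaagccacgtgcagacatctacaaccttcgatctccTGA

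The result differed when the longest AUG frame was taken. It ended more than 50 bases before the last junction in 4 of 10 genes, GAS5, SNHG1, SNHG5 and SNHG15, against 28.3% of other lncRNA genes and 0.382% of protein-coding genes. In GAS5 and SNHG1 the first frame was also the longest. It ran for 50 codons in GAS5, 274 bases before the last of 7 further junctions, and for 57 codons in SNHG1, 281 bases before the last of 8 further junctions. The longest frame of SNHG5 held 64 codons and stopped 240 bases before the last junction, and that of SNHG15 held 98 codons and stopped 67 bases before it. In ZFAS1, SNHG7 and SNHG8 it lay within the last exon, where no junction follows. In SNHG6, SNHG12 and SNHG16 it began upstream of the last junction and stopped past it. SNHG7 had the longest frame of all, 181 codons, and the highest GC content, 65.9%, against a median of 46.4% for the 10 genes. Over all 352 transcripts, the longest frame met the criterion in 174, unevenly among the genes: SNHG1 gave 70 of its 79 transcripts and SNHG5 50 of its 87, while the share was 23.1% in GAS5, 10% in SNHG7 and 5.88% in SNHG16. Shares over all transcripts of other genes were not computed.

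**Figure D3:**
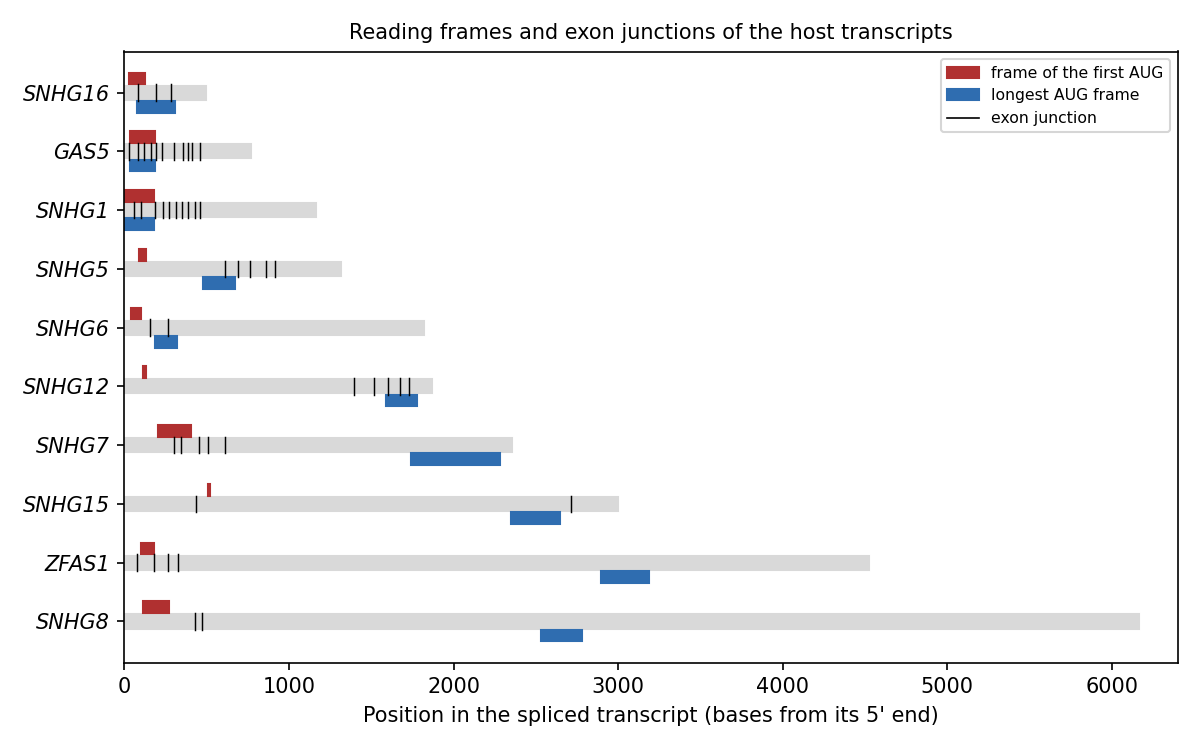
Reference-choice transcripts of the 10 host genes drawn to scale in bases from the 5′ end (grey bars), with exon junctions as black ticks, the frame of the first AUG in red above and the longest AUG frame in blue below. Junctions follow the red frame in all 10 transcripts, while the blue frame of ZFAS1, SNHG7 and SNHG8 lies after the last junction.

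The RefSeq table placed 37 snoRNA genes within the spans of the 10 hosts, of which 28 are C/D and 8 H/ACA by name. GAS5 held 11 of them, SNHG1 9, SNHG12 4, and ZFAS1 and SNHG16 3 each. The remaining hosts held 1 or 2. All but 2, SNORA103 in GAS5 and SNORA9 in SNHG15, lay in introns of the reference-choice transcript. Of the 28 C/D snoRNAs, 19 ended 60 to 100 bases before the next exon, as did 1 of the 6 intronic H/ACA snoRNAs. The median distance was 81 bases for C/D and 302 bases for H/ACA snoRNAs. The table gives no strand, and the distances were taken on the strand of the host. They run to exons of the reference-choice transcript, and no other transcript was tried. Distances for snoRNAs of other hosts were not computed. The longest distance, 52211 bases, was that of SNORD1A in SNHG16, in an intron of 52519 bases.

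Rows for the snoRNAs themselves had lower means than their hosts. The labels describe selection of polyadenylated RNA, and its part in these levels was not tested. The 28 C/D rows had a median mean of 13.3, beside a median of 5.51 over all 233 rows named SNORA or SNORD, which ranged from 0.338 to 13973. Of the 37 snoRNAs, 34 were listed by symbol or synonym, and their means summed to 625, or 4.17% of the summed means of the 10 hosts. In SNHG1 the 8 listed snoRNAs summed to 204, beside 3412 for the host. In GAS5 all 11 were listed and summed to 327, beside 1209 for the host. SNORD47 was the highest of them with a mean of 116, followed by SNORD76 with 54.4 and SNORD80 with 43.2. In SNHG1, SNORD29 had a mean of 50.6 and SNORD26 of 43.4.

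The order of the snoRNA rows did not follow that of the hosts. SNHG16 was the second highest host, and its SNORD1A, SNORD1B and SNORD1C had means of 1.20, 0.523 and 1.10. ZFAS1 had a mean of 1345, and its SNORD12, SNORD12B and SNORD12C had means of 2.56, 1.42 and 0.873. SNHG12, the lowest host, held SNORA61 with a mean of 11.7, SNORA16A with 11.7, SNORA44 with 5.90 and SNORD99 with 4.88. Per kb, the C/D rows had a median of 9.64% of the host's level (0.0947% to 95.8%, 28 rows) and the H/ACA rows a median of 44.1% (19.1% to 67.5%, 6 rows). These medians were 8.55% and 18.8% with the median transcript length of the host, and 33.5% and 99.4% with the union of its exons. Of the 6 H/ACA rows, 3 lie in SNHG12 and 1 in SNHG8, the hosts lowest per kb with the reference-choice length. With the median length SNHG8 ranked 5 among the 10 hosts, and with the union of exons 8. The other 2 rows, SNORA103 and SNORA9, overlap a host exon. SNORD47 was the C/D row at 95.8%. No row passed its host per kb with the reference-choice or the median length, whereas 4 C/D rows did with the longest transcript (SNORD47 highest, at 392%), and 6 C/D and 3 H/ACA rows did with the union of exons (SNORD47 at 615%). Reads of unspliced host RNA and of the snoRNA cannot be told apart in such a row.

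**Figure D4:**
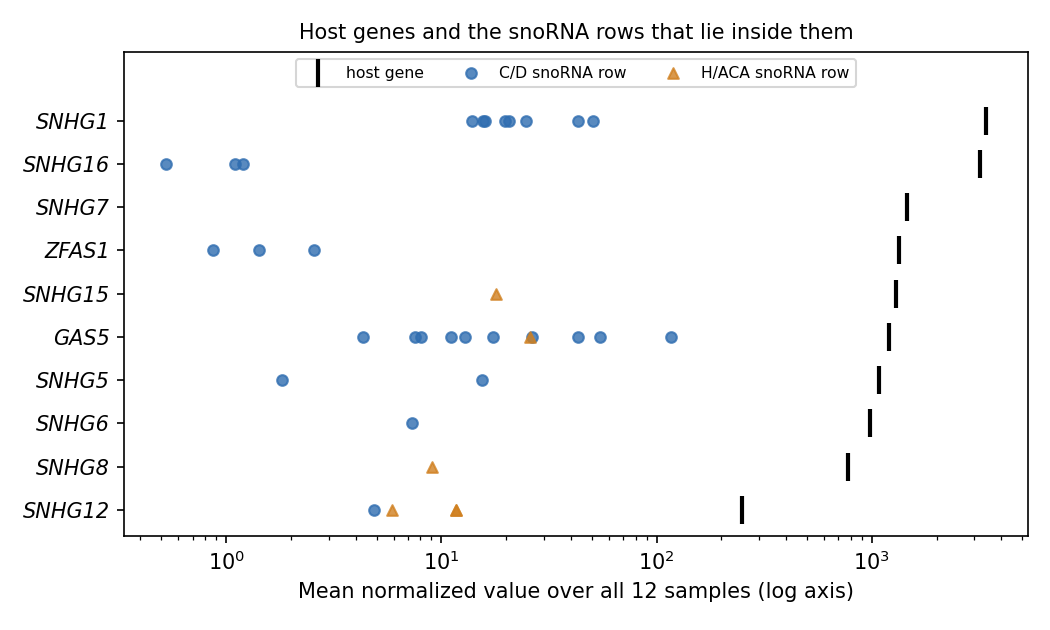
Authors' mean normalized value over all 12 samples (horizontal log axis) of each host gene (black bar) and of the listed C/D (blue circles) and H/ACA (orange triangles) snoRNA rows inside it. Every snoRNA row lies left of its host, from 0.523 in SNHG16 to 116 in GAS5, and SNHG7 has no listed row.

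Genes of the NMD and snoRNP machinery were detected in the same cells. All 20 NMD factors of the list were present, with a median of 653 per kb, and 11 of them lay above the host genes' median of 580 per kb (17 above the hosts' median of 1249 on the mean without division by length, and 13 to 14 with the other 3 lengths). UPF1, the helicase at the centre of NMD, was at 1506 per kb, and CASC3, a component of the exon junction complex, was the highest at 3166 per kb. The exon junction helicase EIF4A3 was at 2420 per kb. UPF3A, a paralog of UPF3B, was the lowest at 131 per kb, while UPF3B was at 974 per kb. XRN1, the 5′ to 3′ exonuclease that completes decay, was at 155 per kb. The 8 snoRNP proteins that bind the excised snoRNAs had a median of 5149 per kb, and all 8 lay above the median of the hosts, as they did on the mean and with the longest transcript or the union of exons, while 7 did with the median transcript length. FBL, the methyltransferase of C/D snoRNPs, was the highest at 20973 per kb, and GAR1, a protein of H/ACA snoRNPs, the lowest at 1252 per kb.

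Overlapping genes limit some of these values, and not every overlap is reported here. The labels describe strand-specific libraries, but whether strand was used in counting is not given in the sources used here. ZNFX1, with a mean of 843, shares 249 bases with ZFAS1 on the other strand. PRSS12, which shares 5279 bases with SNHG8, had a mean of 242 against 777 for SNHG8.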

How the data were processed

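Each of the 3 tables compares a compound with vehicle. The deposited signal analysed is the mean over all 12 samples of values the authors scaled with DESeq2 size factors. Alignment by the authors was to GRCh38.p7 in SeqManPro (DNAstar), and ArrayStar with QSeq gave gene values that the methods describe as normalized to RPKM before the DESeq2 fit; the deposited means exceed an RPKM scale, and whether they are per length is not settled. The processing notes name DESeq2 1.40.1 and, beside GRCh38, a second build whose role is not given. The annotation and filters are not given in the sources used here. The remaining columns hold the study's own fold changes, errors, statistics and p-values and were not used. No group was therefore compared with another.

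Lengths, exons and reading frames came from GENCODE 44 on GRCh38, matched by symbol or RefSeq synonym (89.7% of the 15638 genes with a mean of at least 10), and promoters and snoRNA positions from RefSeq tables of GRCh38.p14. The files hold no coordinates. In each table, 23 symbols had become dates or numbers and were not used by name. Reading-frame and tract searches were tested on simulated sequences, in Python 3.11.15 with pandas 2.3.3. All 10 genes are named, as are the highest and lowest genes of each list and those a count needed. The members and lists were chosen with earlier results of these data known. The unused columns of per-sample values numbered 0. Alternatives changed the transcript length, the background of genes, the reading frame and the tract.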

Additional observations from a re-analysis of the deposited data

How the results depend on the processing

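No paired analysis was possible because no value per sample was used. A level counted as moved beyond 1.5-fold and a percentile beyond 5 points. The median of the 10 host genes, 580 per kb, was 272 with the union of exons, 1445 with the median transcript length and 1249 with the deposited mean taken as already per length (chosen after seeing the data), and stayed within 1.5-fold with the longest transcript. Their median percentile was 66.1 among genes with a mean of at least 10, 77.3 among all symbols, 54.5 among genes with a mean of at least 100 and 71.8 ranked per kb. Frames ending over 50 bases before the last junction were found in 4 host genes with the longest frame, in 10 with the first AUG and in 2 with the longest transcript, which in SNHG12 has no junction. A pyrimidine tract was found in 6 host genes, in 2 with at least 6 pyrimidines and in 8 with a window of 25 bases. In the first 11 bases of the GENCODE transcript it was found in 3. That alternative was chosen after seeing the data and has no share over other genes. By gene, the level per kb moved for 4 of 10 with the longest transcript, 7 with the union of exons and 7 with the median length. The percentile moved for 9 among all symbols, 9 at a mean of at least 100 and 7 per kb. Leaving out samples was not possible on a mean.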
